A study of Mus musculus with 8 samples.

Results

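Oxidative phosphorylation genes were compared between haematopoietic progenitors of wild type mice and of mice with a deletion in the oxygenase gene Jmjd6. The genes were chosen by their symbols: the Nduf subunits of complex I, the 4 Sdh subunits of complex II, the Uqcr subunits of complex III, the Cox subunits of complex IV whose symbol runs from Cox5 to Cox8 with a letter, and all Atp5 genes of complex V. Of 26146 rows of the count table, 88 matched, 2 pseudogene rows (Atp5c1-ps and Uqcrh-ps1) were dropped, and 86 members remained. They comprised 41 genes of complex I, 4 of complex II, 8 of complex III, 16 of complex IV and 17 of complex V. The symbol pattern for mitochondrial-encoded subunits matched 0 rows, so that side of the respiratory chain was not analysed here and every member is a nuclear gene.

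Oxidative phosphorylation takes electrons from NADH (complex I) and succinate (complex II), passes them through complex III and cytochrome c to oxygen at complex IV, and uses the resulting proton gradient to make ATP at complex V. Complexes I, III, IV and V are built from subunits of both the nuclear and the mitochondrial genome, whereas complex II is built from nuclear subunits alone. Haematopoietic stem cells are known for a low respiratory rate, and respiration rises as they leave quiescence.

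RNA came from sorted Lin-Sca1+Kit+ (LSK) cells of bone marrow, a fraction of stem cells and early multipotent progenitors. The KO group held 4 mice in which a floxed Jmjd6 had been deleted by a Cre active in haematopoietic lineages, and the other group held 4 wild type mice, with 1 library of polyA RNA per mouse. The labels do not name the Cre, do not say whether the wild type mice carried it or the floxed allele, and give no age. Totals ran from 9344779 to 15079960 counts per library.

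Jmjd6 stood at 52.5 to 63.7 CPM (counts scaled to a common library total) in wild type and at 27.5 to 30.7 CPM in KO, without overlap. The KO mean was 0.49 times the wild type mean, and since the table holds gene totals, the RNA that remained could not be divided into deleted and intact parts of the gene. Of the 10 LSK markers none was at 0, and they summed to 3065, 3305, 3848 and 3415 CPM in wild type and 3300, 3285, 3163 and 2970 CPM in KO. Kit and Cd34 stood at no less than 416 and 1137 CPM in any library. Hlf, which encodes a stem cell factor, had 205, 178, 250 and 276 CPM in wild type and 161, 157, 145 and 118 CPM in KO. Slamf1 of the same list lay the other way, with 3.98, 4.66, 9.04 and 5.17 CPM in wild type and 10.6, 9.25, 11.9 and 11.6 CPM in KO. In neither gene did the groups overlap, as in 2.11% (KO lower) and 2.08% (KO higher) of all tested genes. Meis1 and Mecom were lowest in KO replicate 4, at 214 and 23.9 CPM, where Ly6a was highest, at 227 CPM. The T cell marker Cd3e was at 0 CPM in 7 of 8 libraries. Wild type replicate 1 stood apart in 10 granulocyte and monocyte markers, which summed to 5397 CPM where wild type replicates 2 to 4 had 987 to 1259 CPM, and to 1628, 1565, 2414 and 1832 CPM in KO replicates 1 to 4. Apart from wild type replicate 1, each KO library thus exceeded each wild type library in this sum, and KO replicates 3 and 4 were the highest. Mpo made up most of the sum, and single markers differed. Elane had 42.5 and 46.0 CPM in KO replicates 1 and 2 against 54.3 and 56.0 CPM in wild type replicates 2 and 4. Ltf was at 0 CPM in KO replicates 3 and 4. Wild type replicate 1 also stood apart in 9 erythroid markers, which summed to 1666 CPM against 924 to 1071 CPM. Wild type replicate 4 and KO replicate 3 had 0 counts of 4 Y-linked genes, and the other 6 libraries had 3660 to 4814. KO replicate 3 also stood apart on the first principal component of all tested genes, with a score of 83.9 against -28 to 9.4. Whether these differences had a part in the results below was not tested. Values without KO replicate 3 or 4 stand beside many of the member results that these libraries moved most.

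A change in the members can be read only at the level of the RNA of the whole sorted fraction, in which fewer cells of a type and less RNA per cell cannot be told apart. Of the 86 members, 79 passed the filter on low counts and were tested. None was called at an adjusted p under 0.05 by edgeR's quasi-likelihood test, against 0.0595% of the 13439 genes tested (8 genes). DESeq2 and limma voom also called 0 members, against 0.492% and 0.231% of all genes. At an unadjusted p under 0.05, 6 members were higher in KO against 2.78% of all genes, and 0 were lower against 3.28%. The 6 were Ndufa7, Ndufb9, Ndufb10, Ndufb11, Uqcrh and Atp5o, and their lowest adjusted p by edgeR was 0.772. The count of 6 (7.59%) was 2 (2.53%) without KO replicate 3, against 3.25% of all genes. It was 0 without KO replicate 4 against 1.99%, and 1 (1.27%) without wild type replicate 3 against 1.66%. But it was 18 (22.8%) without KO replicate 1 against 4.36%, and 14 (17.7%) without KO replicate 2 against 4.02%. By limma voom it was 2 (2.53%) against 4.46%. In size, 77 of 79 members lay above 0 against 49.6% of all genes, with a median log2 fold change of 0.28 against -0.00. All genes are not matched to the members in length, here or in the shares below. The median transcript length was 763 bases in the tested members and 2732 bases over all tested genes. Under the alternatives given below, which include the removal of a trend on length and level, the median of all members ran from 0.07 to 0.39.

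The KO libraries were not alike. KO replicates 1 and 2 lay at the wild type level, whereas KO replicates 3 and 4 lay above it in most members. The members together summed to 13854, 12287, 12015 and 12754 CPM in wild type replicates 1 to 4, and to 12960, 13334, 16173 and 17539 CPM in KO replicates 1 to 4. KO replicate 3 exceeded every wild type library in 59 of 79 members and KO replicate 4 in 73, against 31.5% and 27.9% of all tested genes. Both did so in 56 members, against 14.8% of all tested genes. KO replicates 1 and 2 did so in 9 and 10 members, against 16.2% and 16.7%, and lay inside the wild type range in 64 and 63. The spread of log2 CPM was larger among the KO than among the wild type libraries in 69 members, a share of 87.3% against 65.4% of all genes.

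**Figure D1:**
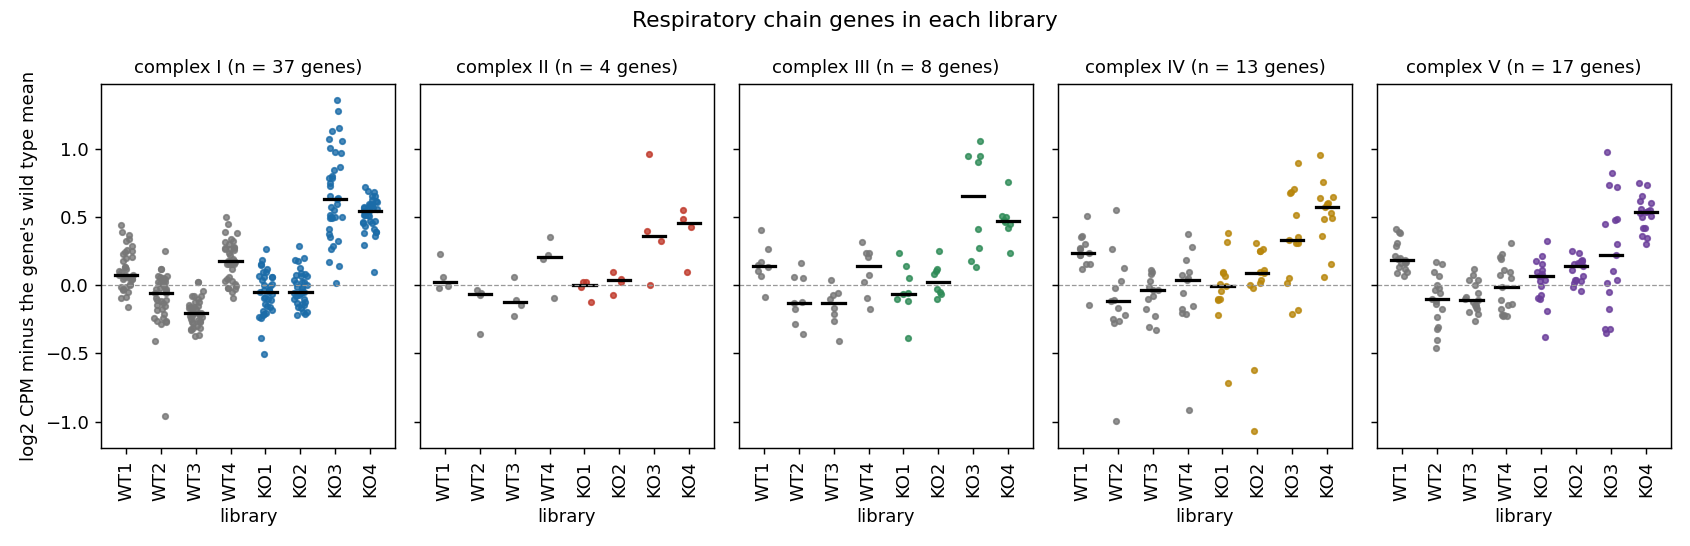
Log2 CPM of each tested member minus that gene's mean over the 4 wild type libraries (vertical axis) in each of the 8 libraries (horizontal axis), 1 panel per complex. Points are genes, black lines are medians over the genes of a complex, and the dashed line is the wild type mean. In complex I the median was 0.63 in KO replicate 3 and 0.55 in KO replicate 4, against -0.05 in KO replicates 1 and 2.

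The 2 high KO libraries also differed from each other by complex. KO replicate 3 exceeded KO replicate 4 in 23 of 37 tested members of complex I, but in 4 of 13 of complex IV and 3 of 17 of complex V. In KO replicate 3 the median difference from the wild type mean (log2) was 0.63 for complex I, 0.36 for complex II, 0.66 for complex III, 0.33 for complex IV and 0.22 for complex V. In KO replicate 4 it was 0.55, 0.45, 0.47, 0.58 and 0.54 in the same order. KO replicate 4 thus lay above the wild type mean by a like amount in each complex, and KO replicate 3 by most in complexes I and III. These are values of single libraries and carry no test.

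Promoter sequences are shown because respiratory chain genes are known targets of the factors NRF1, GABP (an ETS factor) and YY1. Whether these factors had a part in the fold changes was not tested. RefSeq promoter windows of GRCm38.p6, from 250 bases before to 50 after the start, were found for 68 of 86 members. Each line below is 120 bases read on the gene's strand, with each match to a searched motif in capitals. The lines end at the RefSeq start or, so as to hold no transcribed base of GENCODE M21, before it: 40 bases before for Sdha, 43 for Atp5h and 1 for Uqcrh. They were chosen after the search from members with a match, 1 each from complexes I, II, III and V.
Ndufa11: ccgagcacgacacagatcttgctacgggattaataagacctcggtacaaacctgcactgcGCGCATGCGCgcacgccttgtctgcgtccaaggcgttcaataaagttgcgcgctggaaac
Sdha: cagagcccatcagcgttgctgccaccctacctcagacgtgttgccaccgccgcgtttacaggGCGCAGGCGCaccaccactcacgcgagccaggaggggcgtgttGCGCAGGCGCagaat
Uqcrh: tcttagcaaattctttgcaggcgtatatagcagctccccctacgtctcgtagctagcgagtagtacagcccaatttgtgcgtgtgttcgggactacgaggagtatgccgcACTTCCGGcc
Atp5h: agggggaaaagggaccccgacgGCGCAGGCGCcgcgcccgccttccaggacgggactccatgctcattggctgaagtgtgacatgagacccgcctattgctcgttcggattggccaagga

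The Ndufa11 window lies at chr17:56717642-56717761 on the plus strand. The others lie on the minus strand, Sdha at chr13:74350281-74350400, Uqcrh at chr4:116075072-116075191 and Atp5h at chr11:115419963-115420082. The capitals mark the strict NRF1 motif in Ndufa11, its looser form, read from the opposite strand, in Sdha (2 copies) and Atp5h, and an ETS motif on the opposite strand in Uqcrh. A further copy of the looser form in Sdha and an ETS match in Atp5h lie in the bases left out. The motifs were searched on both strands. The strict NRF1 motif, the 10 letters in capitals in the Ndufa11 window, was in 5 of 68 member windows (7.35%), against 2.1% of the 10303 windows of tested genes and 0.977% of all 27025 windows. A looser form with any base at the fifth place, which includes the strict one and was searched after its result was seen, was in 16 (23.5%), against 10.5% and 4.78%. The ETS letters CCGGAAGT were in 5 (7.35%), against 8.5% of tested genes and 4% of all. The YY1 letters AAGATGGC were in 8 (11.8%), against 4.77% and 2.88%. Tested members with the looser NRF1 form had a median log2 fold change of 0.27 and those without it 0.29. With and without the strict form the medians were 0.3 and 0.28, and with and without the ETS letters 0.28 and 0.28. Of the members printed above, Ndufa11 gave 0.26, Sdha, with 3 copies of the looser form, 0.04, Uqcrh 0.42 and Atp5h 0.28.

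Complex I, NADH dehydrogenase, is the largest entry point of electrons. Its 37 tested members all lay above 0, from 0.07 (Ndufv3) to 0.56 (Ndufb7), with a median log2 fold change of 0.29 and 0 called. The 7 nuclear core subunits, most of which carry the flavin or iron-sulfur clusters or bind quinone, had a median of 0.25. The 30 tested accessory subunits, which surround the core, had a median of 0.30 and ranged from 0.07 to 0.56. All 4 members of complex I with an unadjusted p under 0.05 were accessory subunits. Since these made up 30 of the 37 tested members, that count does not set the core apart.

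Ndufa7, an accessory subunit on chromosome 17 (33824572 to 33838317, plus strand, mm10), had 93.1, 89.6, 77.2 and 101 CPM in wild type replicates 1 to 4 and 102, 98.1, 177 and 145 CPM in KO replicates 1 to 4. KO replicates 3 and 4 were high, and KO replicate 2 lay below wild type replicate 4. The means were 90.3 ± 9.96 and 131 ± 37.7 CPM (SD, n = 4), a log2 fold change of 0.53 ± 0.199 (SE, edgeR adjusted p = 0.772). Without KO replicate 3 it was 0.35 and without KO replicate 4 it was 0.48.

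Ndufb9 (chromosome 15, 58933756 to 58939488, plus strand), an accessory subunit of the membrane arm, was 1 of 2 members whose groups did not overlap with KO higher, against 2.08% of all tested genes. No member had KO lower without overlap, against 2.11%. Ndufb9 had 164, 163, 140 and 157 CPM in wild type and 166, 178, 219 and 240 CPM in KO. The gap between the groups was that between 164 and 166 CPM, and the rest of the difference lay in KO replicates 3 and 4. Its log2 fold change was 0.37 ± 0.151 (SE, edgeR adjusted p = 0.774). The annotation gives it 201 bases of exon in common with Gm49356 on the same strand, whose reads may not have been told apart.

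Ndufb10, also of the membrane arm, had 99.9, 103, 78.7 and 119 CPM in wild type and 103, 113, 220 and 147 CPM in KO, a log2 fold change of 0.54 (adjusted p = 0.801 by edgeR) that was 0.27 without KO replicate 3. Ndufb7, with the highest log2 fold change of the complex, had 69, 64, 51.6 and 87 CPM in wild type and 69.7, 60.6, 171 and 101 CPM in KO. Its log2 fold change of 0.56 was 0.18 without KO replicate 3, below that of Ndufa7. In both genes KO replicate 3 was the highest library and KO replicate 4 the next, and KO replicates 1 and 2 lay within the wild type range. Ndufb11, an X-linked accessory subunit, gave 0.39 (adjusted p = 0.811 by edgeR).

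Among the core subunits, Ndufs1, which holds iron-sulfur clusters of the NADH arm, had 189, 142, 168 and 164 CPM in wild type and 172, 173, 182 and 176 CPM in KO. All 4 KO libraries lay inside the wild type range, and the log2 fold change was 0.09 (95% interval from -0.20 to 0.37). Ndufv1, which binds NADH and flavin, had 159, 178, 160 and 162 CPM and 183, 158, 219 and 242 CPM, a log2 fold change of 0.28. The core subunits Ndufs3, Ndufs7, Ndufs8 and Ndufv2, gave log2 fold changes of 0.25, 0.23, 0.31 and 0.24, and Ndufs8 gave -0.00 by limma voom. Without KO replicate 3 they gave 0.12, 0.13, 0.08 and 0.20. With single libraries left out, Ndufv2 ran from 0.10 to 0.36, so the value without KO replicate 3 was not its lowest. Ndufs8, which carries iron-sulfur clusters towards quinone, had 124, 116, 104 and 156 CPM in wild type and 113, 108, 222 and 177 CPM in KO. Ndufs3 ranged from 83.9 to 99.6 CPM in wild type and from 80.9 to 135 CPM in KO, Ndufs7 from 120 to 164 and from 128 to 194 CPM, and Ndufv2 from 204 to 253 and from 204 to 332 CPM. In Ndufv1, Ndufs3, Ndufs7, Ndufs8 and Ndufv2 KO replicates 3 and 4 were the highest of the 8 libraries.

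Per length of transcript, Ndufa4 had the highest wild type level of the complex, 477 CPM per kilobase. It carries a complex I name but is now known as a subunit of complex IV. Its CPM was 297, 208, 222 and 287 in wild type and 244, 283, 355 and 366 in KO, a log2 fold change of 0.30 (adjusted p = 0.832 by edgeR). The members of complex I that did not pass the filter are paralogues or copies: Ndufa11b, Ndufb4c and Ndufs6b had 3, 19 and 7 counts over all 8 libraries, and Ndufa4l2, a hypoxia-inducible relative of Ndufa4, had 23. Ndufb4b passed with 206 counts, but it resembles Ndufb4 closely and how reads were divided between the pair is uncertain.

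Complex II, succinate dehydrogenase, belongs to both the respiratory chain and the TCA cycle. Its 4 subunits had a median log2 fold change of 0.20, with 0 called, and their values differed. Sdha, the flavin subunit with the active site, had 648, 608, 649 and 584 CPM in wild type and 630, 633, 623 and 664 CPM in KO. The KO libraries lay within or just above the wild type range, and the log2 fold change was 0.04 (95% interval from -0.23 to 0.30), and -0.01 with library size only in place of TMM scaling. Sdhb, the iron-sulfur subunit (chromosome 4, 140961203 to 140979193, plus strand), had 197, 188, 184 and 226 CPM in wild type and 196, 205, 385 and 277 CPM in KO. Its means were 199 ± 19 and 266 ± 87.5 CPM (SD, n = 4), a log2 fold change of 0.42 ± 0.208 (SE, edgeR adjusted p = 0.819) that was 0.19 without KO replicate 3. KO replicates 1 and 2 were inside the wild type range of Sdhb. The membrane anchor gene Sdhc had 122, 119, 112 and 144 CPM in wild type and 126, 132, 155 and 166 CPM in KO, and the other anchor gene, Sdhd, had 215, 143, 157 and 235 CPM and 169, 175, 243 and 269 CPM. Their log2 fold changes were 0.22 and 0.19, with adjusted p of 0.833 and 0.883 by edgeR, and 0.15 and 0.06 without KO replicate 4. For Sdhd wild type replicates 1 and 4, at 215 and 235 CPM, were above KO replicates 1 and 2, at 169 and 175 CPM.

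**Figure D2:**
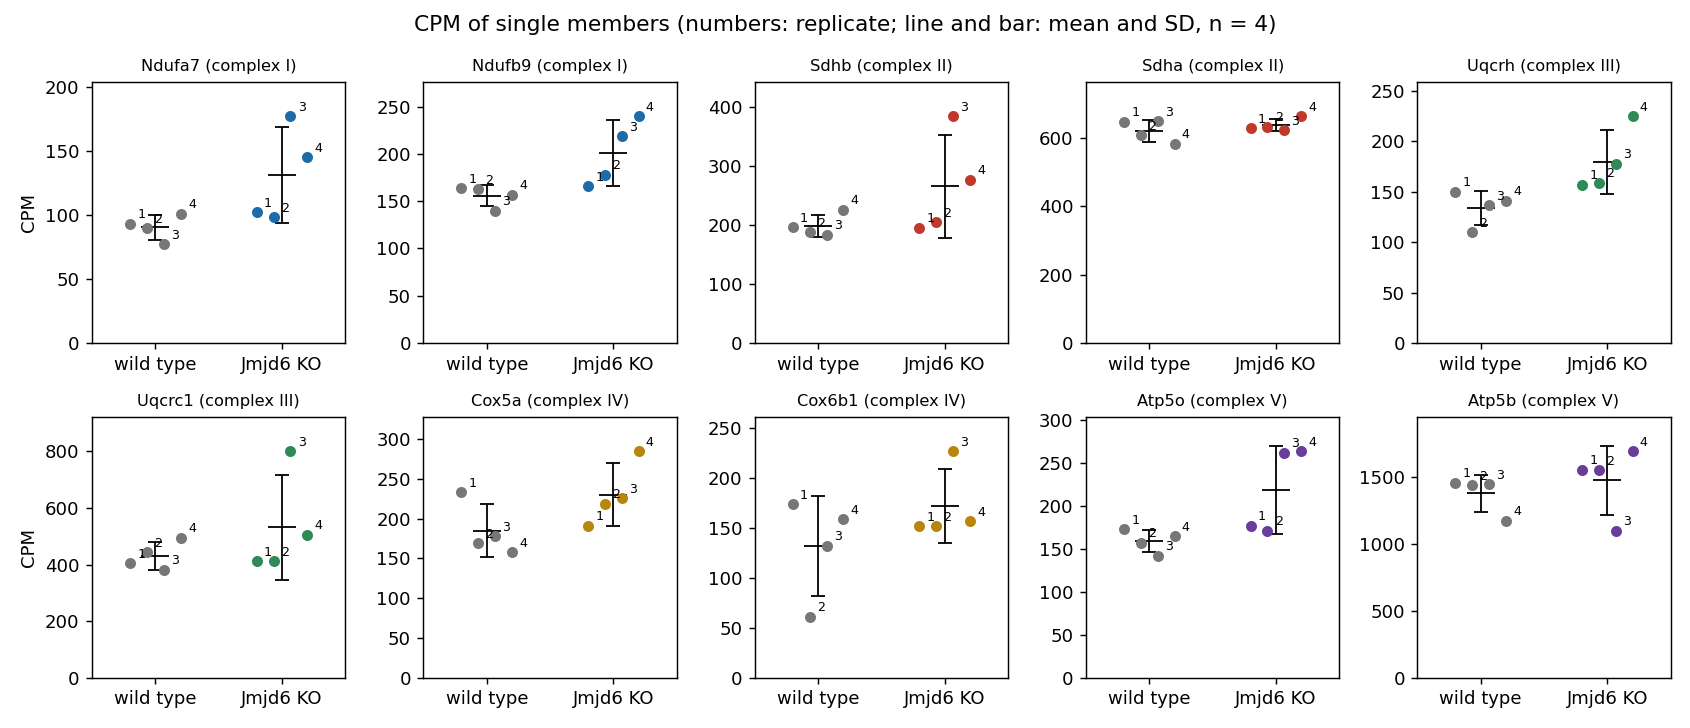
CPM (vertical axis, from 0) of 10 members in the wild type and Jmjd6 KO libraries, with the replicate number beside each point and the mean and SD of 4 libraries as line and bar. Sdhb and Uqcrc1 were highest in KO replicate 3, Uqcrh, Cox5a and Atp5b in KO replicate 4, and Atp5b was lowest in KO replicate 3.

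Complex III, the cytochrome bc1 complex, had a median log2 fold change of 0.33 over 8 tested members, all above 0, with 0 called. Uqcrh, the hinge protein that contacts cytochrome c1 (chromosome 4, 116066965 to 116075071, minus strand), was the other member without overlap. It had 150, 110, 137 and 141 CPM in wild type and 157, 159, 178 and 225 CPM in KO, so that every KO library exceeded every wild type library. The means were 134 ± 17.3 and 180 ± 31.8 CPM (SD, n = 4), a log2 fold change of 0.42 ± 0.162 (SE, edgeR adjusted p = 0.772). It was 0.43 without KO replicate 3 and 0.29 without KO replicate 4, so unlike Sdhb it did not rest on KO replicate 3.

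The core protein gene Uqcrc1 (chromosome 9, 108936633 to 108949623, plus strand) had 404, 444, 382 and 495 CPM in wild type and 412, 411, 801 and 506 CPM in KO. KO replicate 3 was far above the other 7 libraries, and the log2 fold change of 0.30 (adjusted p = 0.833 by edgeR) was 0.04 without it. The other core protein gene, Uqcrc2, gave 0.20, and from 0.10 to 0.27 with single libraries left out. It ranged from 220 to 259 CPM in wild type and from 245 to 325 CPM in KO. Uqcrfs1, the Rieske iron-sulfur subunit, had 187, 200, 171 and 158 CPM and 196, 192, 215 and 253 CPM, a log2 fold change of 0.26. Uqcr10, a small subunit, had 80.2, 66.1, 60.2 and 85.0 CPM in wild type and 66.5, 78.4, 139 and 100 CPM in KO, a log2 fold change of 0.40 (adjusted p = 0.832 by edgeR) that was 0.17 without KO replicate 3. The small subunits Uqcr11 and Uqcrq gave 0.36 and 0.39, and all 3 were highest in KO replicate 3. Uqcrb, which had the highest wild type level per length (380 CPM per kilobase), gave 0.06. It gave -0.10 by limma voom, -0.04 when wild type replicate 2 was left out and -0.10 when KO replicate 4 was. Its highest wild type library, replicate 1 at 264 CPM, exceeded 3 of the 4 KO libraries. Cyc1, the catalytic cytochrome c1 gene that the symbol pattern does not match, was looked up after the other values were seen and gave 0.14.

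**Figure D3:**
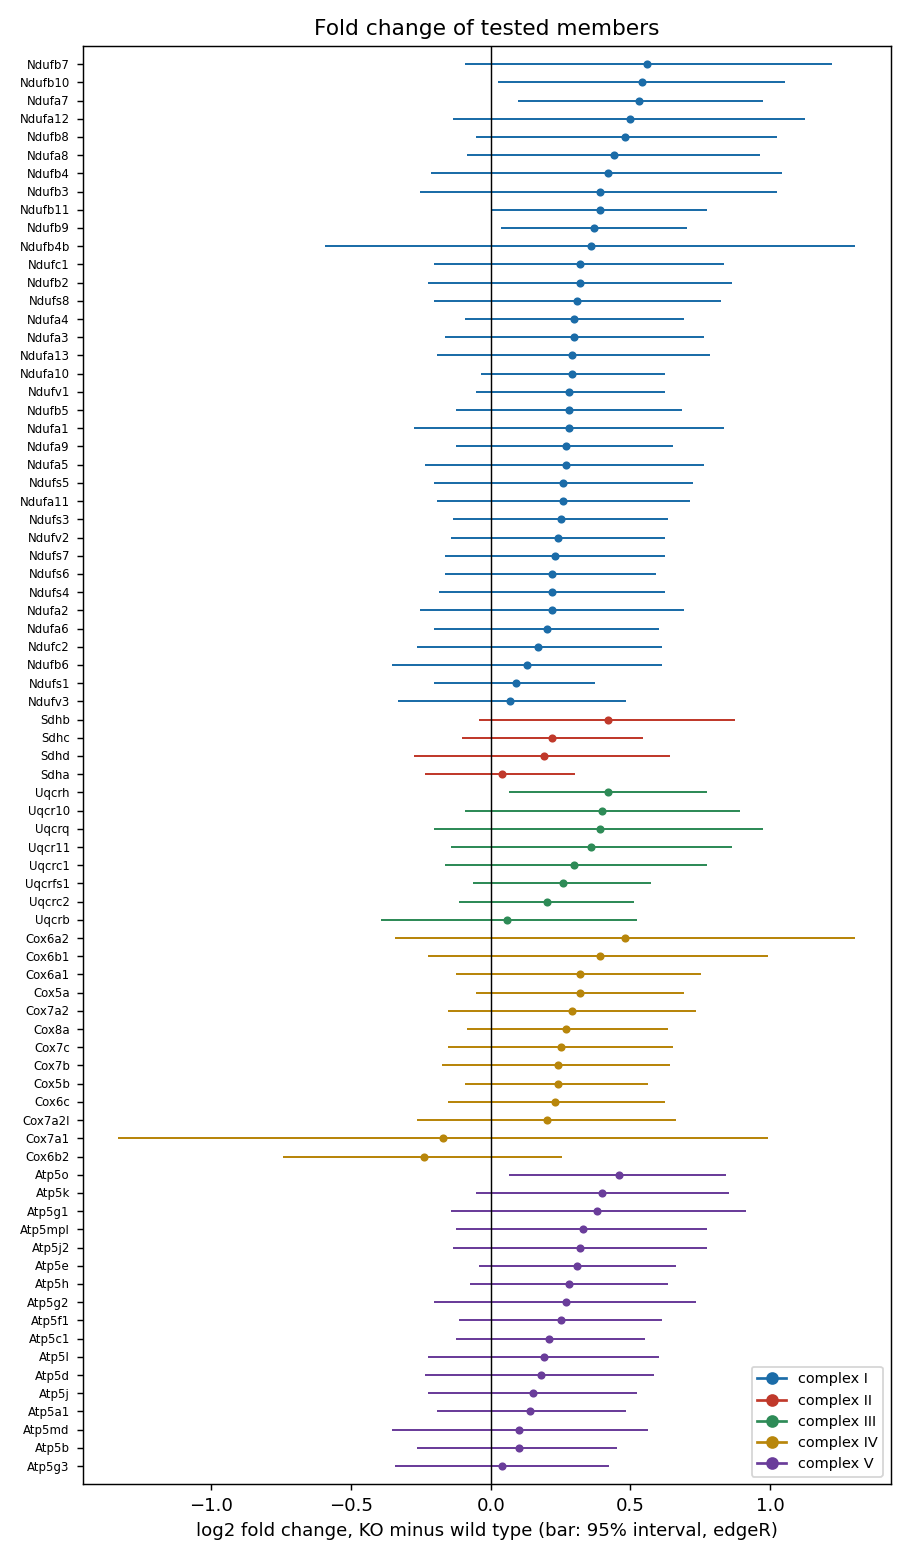
Log2 fold change of all tested members but 1 (points, KO minus wild type, horizontal axis) with its 95% interval from edgeR (bars), grouped and coloured by complex and ordered by size within it. In 6 members the interval lies above 0. They are the same 6 with an unadjusted p under 0.05 by edgeR, since interval and p come from the same test. Only Cox7a1 and Cox6b2 have a point below 0.

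Complex IV, cytochrome c oxidase, had 13 tested members with a median log2 fold change of 0.25 and 0 called, and 11 lay above 0. Cox5a, a subunit of the matrix side (chromosome 9, 57521274 to 57532426, plus strand), had 233, 169, 178 and 158 CPM in wild type and 191, 219, 226 and 285 CPM in KO. Wild type replicate 1 was above 3 of the KO libraries, and the log2 fold change was 0.32 (adjusted p = 0.832 by edgeR), and 0.20 without KO replicate 4. Cox8a, the highest in wild type per length at 349 CPM per kilobase, had 213, 196, 190 and 169 CPM and 204, 227, 198 and 299 CPM, a log2 fold change of 0.27 that was 0.13 without KO replicate 4. Cox6a1 had 164, 134, 129 and 183 CPM in wild type and 146, 149, 246 and 218 CPM in KO, with KO replicates 3 and 4 the highest libraries. Cox5b, Cox6a1, Cox6c and Cox7c gave log2 fold changes of 0.24, 0.32, 0.23 and 0.25, each with an adjusted p of at least 0.832 by edgeR. Without KO replicate 3 Cox6a1 gave 0.17 and Cox7c 0.08, and without KO replicate 4 Cox5b gave 0.14 and Cox6c 0.09. Cox5b ranged from 123 to 155 CPM in wild type and from 139 to 194 CPM in KO, Cox6c from 112 to 159 and from 122 to 199 CPM, and Cox7c from 65.8 to 89.4 and from 76.9 to 123 CPM. All of these ranges overlapped.

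Several subunits of complex IV exist as paralogues made in particular tissues, and the ubiquitous forms prevailed. Cox6a1 made up 98.2% ± 0.84 of the Cox6a pair in wild type and 98.0% ± 0.365 in KO (SD, n = 4), as shares of CPM per kilobase. The muscle form Cox6a2 stood at 1.51 to 5.96 CPM over the 8 libraries. The testis form Cox6b2 was less scarce, at 15.6% ± 7.84 of the Cox6b pair in wild type and 9.62% ± 2.17 in KO. It had 24.1, 20.5, 14.9 and 16.8 CPM in wild type and 16.1, 12.1, 16.5 and 19.6 CPM in KO, a log2 fold change of -0.24 (95% interval from -0.74 to 0.25, adjusted p = 0.859 by edgeR). The muscle form Cox7a1 stood at 0.308 to 1.32 CPM and gave -0.17, but 0.03 and 0.08 without KO replicate 1 or 2. Cox7b2, Cox8b and Cox8c, known from testis or muscle, had 2, 2 and 1 counts over all libraries and did not pass the filter. Cox4i1, outside the symbol pattern, had 336, 317, 287 and 328 CPM in wild type and 339, 339, 424 and 496 CPM in KO, a log2 fold change of 0.33 (adjusted p = 0.812 by edgeR). Its lung paralogue Cox4i2, at 1.55 to 4.18 CPM, gave 0.68 (adjusted p = 0.831 by edgeR).

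Cox6b1, which faces the intermembrane space, and Ndufb3 of complex I shared a pattern in the wild type group and were singled out after their values were seen. Cox6b1 had 174, 61.2, 132 and 159 CPM in wild type and 152, 152, 227 and 157 CPM in KO. Ndufb3 had 69.9, 26.5, 52.3 and 72.9 CPM in wild type and 61.9, 63.0, 101 and 63.4 CPM in KO. In both, wild type replicate 2 was the lowest library. Their log2 fold changes were 0.39 and 0.39, both were 0.15 without wild type replicate 2, and they were 0.23 and 0.18 without KO replicate 3. The Cox6b2 share of the Cox6b pair was 27.2% in that library and 7.49% to 13.4% in the other 7.

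Complex V, the ATP synthase, couples a catalytic F1 head to a proton-driven rotor in the membrane. Its 17 members all lay above 0 with a median log2 fold change of 0.25 and 0 called. The 5 subunits of the F1 head had a median of 0.18 and the other 12 a median of 0.27. Atp5b, the catalytic beta subunit (chromosome 10, 128083273 to 128090391, plus strand), had the highest level per length of the complex, 722 CPM per kilobase in wild type. It had 1462, 1442, 1451 and 1175 CPM in wild type and 1559, 1555, 1102 and 1698 CPM in KO, a log2 fold change of 0.10 (95% interval from -0.26 to 0.45). Atp5a1, the alpha subunit, had 988, 985, 946 and 789 CPM and 1070, 1027, 817 and 1175 CPM, a log2 fold change of 0.14. In both genes wild type replicate 4 and KO replicate 3, the libraries without Y-linked counts, were the lowest of their group.

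KO replicate 3 stood lower in complex V than in complex I. It was above every wild type library in 34 of 37 members of complex I and below every wild type library in 0. In complex V it was above in 8 and below in 3, which were Atp5b, Atp5d and Atp5g2. Atp5d, the delta subunit of the head, had 230, 245, 207 and 200 CPM in wild type and 238, 247, 176 and 336 CPM in KO, a log2 fold change of 0.18 that was -0.00 without KO replicate 4. For the F1 head the median difference from the wild type mean was 0.10, 0.07, -0.00 and -0.18 over the wild type replicates and 0.11, 0.17, -0.18 and 0.53 over those of KO. The gamma subunit Atp5c1 had 553, 492, 490 and 434 CPM in wild type and 520, 558, 497 and 708 CPM in KO, and the epsilon subunit Atp5e had 85.1, 73.1, 66.3 and 81.1 CPM and 79.7, 83.8, 106 and 110 CPM. They gave log2 fold changes of 0.21 and 0.31, and KO replicate 4 was the highest library in both. Without KO replicate 4 Atp5c1 gave 0.09.

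Atp5o, the stalk subunit that ties the head to the membrane part, had 173, 157, 142 and 165 CPM in wild type and 177, 171, 262 and 264 CPM in KO. KO replicate 2 lay below wild type replicate 1, so the groups overlapped. The means were 159 ± 13 and 219 ± 51.4 CPM (SD, n = 4), a log2 fold change of 0.46 ± 0.175 (SE, edgeR adjusted p = 0.772), and 0.36 and 0.35 without KO replicate 3 or 4. The annotated gene shares 287 exonic bases with Donson on the same strand, so some reads may not have been told apart. Atp5k, the e subunit of the membrane part, had 34.8, 27.5, 25.2 and 35.0 CPM in wild type and 31.1, 36.1, 53.8 and 40.5 CPM in KO, a log2 fold change of 0.40 (adjusted p = 0.832 by edgeR). Without KO replicate 3 it was 0.23. Only KO replicate 1 of Atp5k lay inside the wild type range.

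The rotor ring is made from a protein that 3 genes encode with the same mature sequence, Atp5g1, Atp5g2 and Atp5g3, and these differed among libraries. Atp5g1 had 145, 88.6, 101 and 145 CPM in wild type and 119, 120, 230 and 157 CPM in KO. Atp5g2 had 117, 118, 96.8 and 89.7 CPM and 131, 118, 82.0 and 176 CPM. Atp5g3 had 178, 119, 125 and 121 CPM and 124, 132, 129 and 172 CPM. KO replicate 3 was thus the highest library for Atp5g1 and the lowest for Atp5g2. The log2 fold changes were 0.38, 0.27 and 0.04, and none was called. That of Atp5g1 was 0.14 without KO replicate 3, that of Atp5g2 was 0.07 without KO replicate 4, and that of Atp5g3 was -0.01 with library size only, -0.02 and -0.01 without wild type replicate 2 or 4, and -0.08 without KO replicate 4.

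Genes that assemble, feed or regulate the chain were taken from lists, and 0 of their members were called by edgeR. Of 51 assembly factors, 45 lay above 0 against 49.6% of all genes, with a median log2 fold change of 0.24. At an unadjusted p under 0.05 by edgeR, 5 (9.8%) were higher against 2.78% of all genes. The median was 0.05 without KO replicate 3 and 0.07 by limma voom. Lyrm7, which helps to insert the Rieske protein into complex III, had 2.98, 3.46, 2.91 and 3.97 CPM in wild type and 5.54, 6.17, 12.3 and 4.57 CPM in KO. The groups did not overlap, as in 2.08% of all tested genes with KO higher, and the log2 fold change was 1.09 ± 0.353 (SE, edgeR adjusted p = 0.686). Uqcc3 of complex III, Nubpl of complex I and Coa4 and Sco2 of complex IV gave 0.49, 0.49, 0.53 and 0.33. For complex I Ndufaf2 gave 0.42, for complex II Sdhaf1 and Sdhaf4 gave 0.29 and 0.28, and for complex V Atpaf1 and Tmem70 gave 0.39 and 0.23. Among 6 tested electron carriers and entry enzymes 5 lay above 0, and Etfb, which passes electrons from fatty acid oxidation, had 241, 219, 198 and 274 CPM in wild type and 258, 273, 445 and 383 CPM in KO (log2 fold change 0.55, adjusted p = 0.762 by edgeR). Its partner Etfa gave 0.33.

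TCA cycle genes had a median of 0.16 with 10 of 13 above 0, against 49.6% of all genes, among them Mdh2 at 0.49 and Suclg1 at 0.29. Mdh2 was highest in KO replicate 3, with 311, 284, 254 and 349 CPM in wild type and 316, 304, 654 and 403 CPM in KO. The 14 genes of mitochondrial DNA upkeep and transcription divided into 8 above and 6 below 0, with a median of 0.11, among them Polg at -0.28 and Twnk at 0.22. The 9 regulators of respiratory genes had a median of 0.06, with 5 above 0. Nrf1, which encodes the factor of the NRF1 motif, gave 0.29 (adjusted p = 0.832 by edgeR). Ppargc1a, a coactivator that drives mitochondrial biogenesis, lay on the other side of 0, with 8.94, 5.12, 7.93 and 4.22 CPM in wild type and 2.99, 5.55, 1.60 and 2.17 CPM in KO. KO replicate 2 was inside the wild type range, and the log2 fold change was -1.09 ± 0.423 (SE, edgeR adjusted p = 0.772).

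The size of the medians depended on a few libraries and on the model. For complex I the median of 0.29 was 0.16 without KO replicate 3, and for complex III the median of 0.33 was 0.13. For complex V the median of 0.25 was 0.09 without KO replicate 4, for complex II the median of 0.20 was 0.10, and for all members the median of 0.28 was 0.18 without KO replicate 3 or KO replicate 4. Limma voom gave 0.09, 0.08, 0.12, 0.11 and 0.17 for complexes I to V, with 68 of 79 members above 0, and its sample weight was 0.213 for KO replicate 3 and 0.508 for KO replicate 4 against 2.03 and 2.93 for KO replicates 1 and 2. Using the 6 libraries that had Y-linked counts gave medians of 0.23, 0.25, 0.19, 0.23 and 0.24. The tested members have short transcripts, with a median length of 763 bases against 2732 bases over all tested genes. With the dependence of fold changes on length and level removed by loess, the medians were 0.11, 0.11, 0.12, 0.02 and 0.03.

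**Figure D4:**
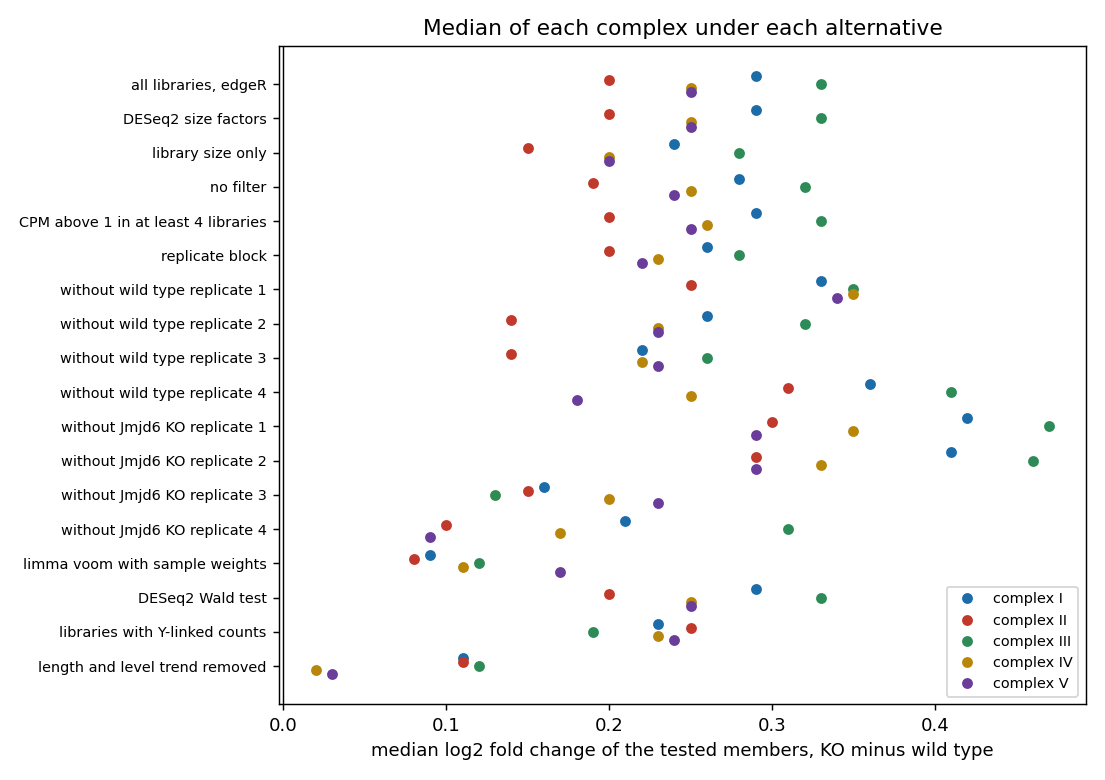
Median log2 fold change of the tested members of each complex (horizontal axis, KO minus wild type) under each alternative (vertical axis), coloured by complex. Every median lies above 0, and the lowest, 0.02 and 0.03, are those of complexes IV and V with the dependence on length and level removed.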

How the data were processed

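PolyA RNA of sorted LSK cells was sequenced from 4 wild type and 4 Jmjd6 KO mice. The deposited values are whole-number counts per gene symbol, from reads aligned with HISAT2 to mm10 (per the submitters' processing notes). For the assignment of reads to genes, the tool and its use of strand were not given in the sources used here, so reads of overlapping genes and close copies may be shared: 28 of 84 placed members share exonic bases with another gene.

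Counts were tested in edgeR 4.0.16 (R 4.3.3) by the quasi-likelihood test over all 8 libraries, with TMM scaling, filterByExpr (min.count 10, min.total.count 15) and Benjamini-Hochberg adjustment over 13439 genes. CPM uses TMM-adjusted library sizes, and log2 CPM a prior count of 2. GENCODE M21 gave positions and transcript lengths (GRCm38, the same assembly as mm10). Alternatives used DESeq2 1.42.0, limma 3.58.1, other scalings and filters, a replicate block, left-out libraries and a loess trend. The scripts were tested on simulated data.

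The values of 1 member are not reported here. By rule, values in each library or ranges were given for the core subunits, the 3 lowest p-values and the highest level per length of each complex. From each other pathway list the 2 genes with the lowest p-values were named. Ndufb11, Ndufb7, Ndufb3, Cox6b1, Cox6b2, Cox6a2, Cox7a1, Uqcr11, Uqcrq, Cyc1 and the Atp5g genes were added after values were seen. Members and lists were chosen with earlier results of these data known.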

Additional observations from a re-analysis of the deposited data

Results flagged for a closer look

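Within groups of 4 libraries, a library was singled out when its gap to the nearest other exceeded the 95% limit of Dixon's test, which chance alone passes in about 1 of 20 groups. Of 102 groups examined, 6 had such a library. Ndufv1 was highest in wild type replicate 2, with 178 CPM where the others had 159 to 162 CPM. Atp5b was lowest in wild type replicate 4, at 1175 CPM against 1442 to 1462 CPM. Cox6b1 and Ndufb3 were highest in KO replicate 3, at 227 CPM against 152 to 157 CPM and at 101 CPM against 61.9 to 63.4 CPM. Atp5g3 was highest in wild type replicate 1, at 178 CPM against 119 to 125 CPM, and in KO replicate 4, at 172 CPM against 124 to 132 CPM.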

How the results depend on the processing

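The count of called members was 0 under every alternative run. The count of called genes over all genes, 8 by edgeR, was 66 by DESeq2, 31 by limma voom, 4 among the libraries with Y-linked counts, 3 with the replicate block and from 2 to 8 when 1 library was left out. The 2 calls came when wild type replicate 1, 2 or 3, or KO replicate 4, was absent, and 3 or 4 when KO replicate 1, KO replicate 2 or wild type replicate 4 was. Same-numbered libraries correlated at 0.03, -0.01, -0.18 and -0.19 in their deviations from the group means. The highest values were 0.42 for wild type replicate 4 with KO replicate 3 and 0.386 for wild type replicate 2 with KO replicate 4. The replicate numbers thus gave no sign of pairing, which correlations among 4 libraries per group cannot exclude. Each median of a complex stayed above 0, from 0.02 to 0.47. Each moved by less than the spread between libraries, an SD of 0.299, 0.312, 0.218, 0.26 and 0.242 for complexes I to V. For complexes I, II, IV and V that spread was near or above the median itself (0.29, 0.20, 0.25 and 0.25). A fall almost to 0 thus also counted as less, and the comparison cannot show that the medians were stable. With single libraries left out the medians ran from 0.16 to 0.42 (complex I), 0.10 to 0.31 (II), 0.13 to 0.47 (III), 0.17 to 0.35 (IV) and 0.09 to 0.34 (V). Library size only gave 75 of 79 members above 0 and moved the median of all genes to -0.05. Signs changed for Sdha (-0.01) and Atp5g3 (-0.01) with library size only, for Atp5g3 without wild type replicate 2, wild type replicate 4 or KO replicate 4 (-0.02, -0.01 and -0.08), for Uqcrb without wild type replicate 2 or KO replicate 4 (-0.04 and -0.10) and by limma voom (-0.10), for Ndufs8 by limma voom (-0.00), for Atp5d without KO replicate 4 (-0.00), and for Cox7a1 without KO replicate 1 or 2 (0.03 and 0.08). With single libraries left out, Uqcrb ran from -0.10 to 0.23, Cox7a1 from -0.27 to 0.08 and Atp5g3 from -0.08 to 0.21. None of these was called, and the cause was not tested. With 4 libraries per group and differences of this size, adjusted p stayed at 0.478 or above for members by edgeR, DESeq2 and limma voom over all 8 libraries.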

Other observations

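The rows of the mitochondrial genome in the count table are its ribosomal RNAs. The large ribosomal RNA mt-Rnr2 had 4258, 517, 2766 and 1650 CPM in wild type replicates 1 to 4 and 3603, 3769, 769 and 1302 CPM in KO replicates 1 to 4. The small ribosomal RNA mt-Rnr1 had 905, 120, 557 and 831 CPM and 722, 796, 206 and 331 CPM. Both were lowest in wild type replicate 2 and KO replicate 3, and their log2 fold changes were 0.04 and -0.23, with adjusted p of 0.993 and 0.942 by edgeR. They give no measure of the mitochondrial-encoded subunits.

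The YY1 letters in member promoters lay in a narrow stretch. All 8 matches lay on the gene's own strand and began 23 to 39 bases after the start, and 7 of 8 were in genes of complex I (Ndufa3, Ndufa9, Ndufb8, Ndufc1, Ndufs4, Ndufs6 and Ndufs7), the other being Atp5j2 of complex V. Complex I is the largest group, with 41 of the 86 members. Strand and place were not examined in the windows of other genes, so they cannot be called particular to the members. Tested members with these letters had a median log2 fold change of 0.28, as did those without.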
